A study of Arabidopsis thaliana with 3 samples.

Results

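Ascorbate peroxidases (APX) of *Arabidopsis thaliana* were followed through the RNA-seq table of plants overexpressing the tomato heat stress transcription factor SlHsfA3. The family was taken as 8 loci, matched by the locus part of the gene identifier, out of 33602 genes in the table. They are *APX1* (AT1G07890), *APX2* (AT3G09640), *APX3* (AT4G35000), *APX4* (AT4G09010), *APX5* (AT4G35970), *APX6* (AT4G32320), *sAPX* (AT4G08390) and *tAPX* (AT1G77490). The groups were wild-type Col-0, with 1 library, and SlHsfA3 OE in the Col-0 background, with 1 library for line #3 and 1 for line #6, both carrying the tomato coding sequence behind the constitutive 35S promoter. Each library came from the pooled above-ground tissue of 20 plants at an age of 4 weeks, kept at 22°C with 16 h of light and 8 h of darkness, and no group received heat or another stress. Each line stems from its own insertion, so a line is a single genotype, and the pooled plants give no spread between individuals.

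APX enzymes are heme peroxidases that remove hydrogen peroxide with ascorbate as the electron donor. The oxidised ascorbate is returned to its reduced form by monodehydroascorbate reductase, dehydroascorbate reductase and, through glutathione, glutathione reductase. *Arabidopsis* places its isoforms in the cytosol, the peroxisome membrane and the chloroplast, and cytosolic *APX2* is best known as a gene that is almost silent in unstressed leaves and is induced by heat and by excess light.

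The sequences before *APX1* and *APX2* are shown because they are the cytosolic pair, in which *APX2* was the called member and *APX1* the most abundant one. Each run is the 250 bases before the annotated gene start, 5′ to 3′ on the strand of the gene, read from the RefSeq genome and annotation of TAIR10.1. Capitals mark the fixed bases of a heat shock element motif, the sequence that heat stress transcription factors are known to bind, searched as GAANNTTC and TTCNNGAA. Each motif is its own reverse complement, so 1 search covers both strands, and the motifs can overlap each other. *APX2* lies on the plus strand at chr3:2955906-2956155 and *APX1* on the plus strand at chr1:2437031-2437280.
APX2 promoter: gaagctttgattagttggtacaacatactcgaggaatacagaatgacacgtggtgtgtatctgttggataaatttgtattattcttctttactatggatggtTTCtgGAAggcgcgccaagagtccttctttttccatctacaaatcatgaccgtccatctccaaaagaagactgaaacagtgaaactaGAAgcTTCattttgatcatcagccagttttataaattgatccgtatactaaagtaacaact
APX1 promoter: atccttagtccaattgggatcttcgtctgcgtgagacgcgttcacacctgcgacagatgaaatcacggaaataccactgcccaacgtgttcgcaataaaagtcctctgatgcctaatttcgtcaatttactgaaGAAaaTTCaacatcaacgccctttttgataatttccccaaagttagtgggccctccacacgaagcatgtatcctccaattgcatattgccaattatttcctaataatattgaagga

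The *APX2* stretch held 1 TTCNNGAA, from -148 to -141 bases of the start, and 1 GAANNTTC, from -61 to -54. The *APX1* stretch held 1 GAANNTTC, from -116 to -109, and *APX5* held 1 GAANNTTC, from -219 to -212. The other 5 members held neither motif, so 3 of 8 stretches held at least 1, against 16.1% of the 27443 promoters searched in the same way. Of these members, the stretches of *APX3*, *APX6* and *tAPX* reach into another annotated gene (AT4G35010, AT4G32300 and AT1G77480). GAANNTTC was found in 9.55% of these promoters, TTCNNGAA in 7.68% and both together, as before *APX2*, in 1.08%. The 3-unit heat shock element, in which either motif is followed after any 2 bases by a further unit in the alternating orientation, was in 0.386% of promoters and in none of the 8 stretches. A match describes the letters in this window and is not a measured binding site.

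**Figure D1:**
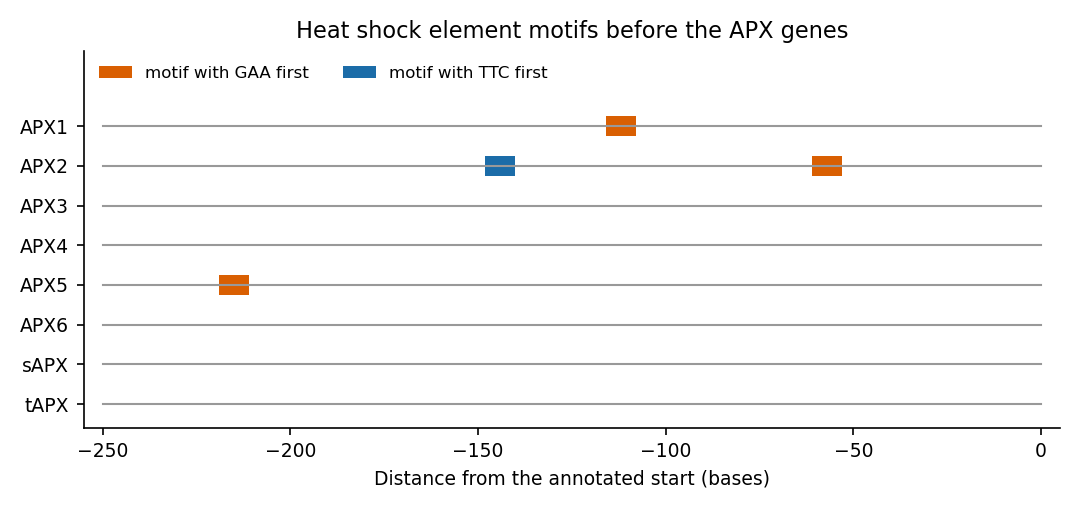
Positions of the motifs GAANNTTC (orange) and TTCNNGAA (blue) in the 250 bases before each APX gene, with the distance from the annotated start in bases on the horizontal axis. *APX2* is the member with both motifs, *APX1* and *APX5* have 1 each and the other 5 lines are empty.

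Reads of 1 member could be counted for another only where their sequences are close. Over their coding sequences *APX1* and *APX2* were 72.7% identical at aligned bases, with gaps left out. Over the spliced transcripts their longest identical run was 12 bases. The pair of 100-base stretches with the fewest differences is shown because it is where reads of the abundant *APX1* would most easily be counted for *APX2*. Capitals mark the 19 bases that differ, and the stretches start at base 31 of the *APX2* and base 28 of the *APX1* coding sequence (TAIR10.1).
APX2 coding: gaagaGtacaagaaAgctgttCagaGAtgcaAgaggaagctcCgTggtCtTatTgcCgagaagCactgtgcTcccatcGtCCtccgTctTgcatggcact
APX1 coding: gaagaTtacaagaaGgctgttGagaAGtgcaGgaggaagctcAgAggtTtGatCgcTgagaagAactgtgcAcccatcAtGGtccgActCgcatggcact

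The closest pair of the family was *sAPX* and *tAPX*, at 76.4% identity of the coding sequences. Over the spliced transcripts their longest shared run was 21 bases, with 13 differences in the closest stretch of 100 bases. In none of the 28 pairs did a stretch of 100 bases come within 2 mismatches. *APX4* overlaps *GRF1* (AT4G09000) on the opposite strand by 85 bases and an antisense RNA by 194 bases, and *APX5* overlaps AT4G35980 on the opposite strand by 76 bases. No strand-marking step is named for the libraries, and in these overlaps reads of the partners cannot be told apart. *GRF1* and AT4G35980 did not pass the test (log2 fold changes -0.21 and -0.0030, adjusted p = 0.918 and 0.998 from edgeR). The antisense RNA is not among the genes with counts, so its level is not known.

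Reads in genes came to between 9968154 and 11556077 per library, of which 6793 in Col-0 against 8229 and 9801 in lines #3 and #6 were from the APX family. Ribosomal RNA genes took 20.9% to 32.5% of the reads, least in line #6. Levels are therefore given as RPKM (reads scaled for gene length and for depth) on depths scaled by TMM, edgeR's trimmed mean of log ratios, and level intervals are exact 95% Poisson intervals for counting error only. The leaf markers summed to 24010, 22720 and 23200 CPM (reads scaled for depth only) in Col-0, line #3 and line #6, and none of the 5 passed the test. Of the 5 vascular markers *IRX3*, a cellulose synthase of xylem walls, fell (log2 fold change -1.86, adjusted p = 7.12e-04 from edgeR). The other 4 were above Col-0 in both lines without passing, among them the xylem protease gene *XCP1* (log2 fold change 0.81, adjusted p = 0.371 from edgeR), at a list median of 0.46 and a sum of 104.1, 125.3 and 109.6 CPM. The anther and pollen markers summed to 22.5, 82.6 and 1.98 CPM, highest in line #3 and lowest in line #6, and 4 of 5 were tested with none called. The 5 root markers summed to 64.9 to 85.6 CPM, with none of 3 tested called, and the seed markers to at most 0.344 CPM, with 5, 4 and 3 of 5 at 0 in the same order. In such bulk samples fewer cells of a type and less RNA per cell cannot be told apart.

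The cytosolic *APX1* was the most abundant member in each library and *APX2* was the member that rose in the OE lines. Among the 8 genes, all of them tested, edgeR's quasi-likelihood test called 1 higher and 0 lower at an adjusted p under 0.05, against 0.229% of all 18802 tested genes called higher and 0.197% called lower. At an unadjusted p under 0.05 the count was 1 of 8, beside 7.38% of all tested genes, and DESeq2 called 1 higher and 0 lower, beside 30 higher and 14 lower over all genes. The family's median log2 ratio to Col-0 was 0.17 in line #3 and 0.14 in line #6, beside 0.0018 and 7.4e-05 over all tested genes. Both lines entered as 2 replicates of the overexpression, so a gene's own spread is that between 2 pools. With 1 residual and 13.6 prior degrees of freedom per gene, the spread behind each p came mostly from all tested genes. The test takes the single Col-0 pool to be as variable as the 2 lines. The rise of *APX2* in these libraries was known when the family was chosen.

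*APX2* had 1 read in Col-0 against 121 and 164 in lines #3 and #6. Per length this was 0.096 RPKM in Col-0 (0.0024 to 0.535), 10.4 in line #3 (8.64 to 12.4) and 13.2 in line #6 (11.3 to 15.4). Both lines lay above Col-0 and the intervals did not overlap it, with an OE mean of 11.8 ± 2.0 RPKM (SD, n = 2 lines). The log2 fold change was 6.79, or 6.95 without edgeR's prior count (SE 0.59, 95% interval 5.68 to 8.21, adjusted p = 3.02e-05 from edgeR). Against the 1 read of Col-0, the ratio was 108 in line #3 (95% counting interval 19.1 to 4317) and 138 in line #6 (24.4 to 5478). With the reads of both lines added together, the ratio was 124 (counting interval 22.0 to 4898.5). The interval derived from edgeR, 51.3 to 296 on the fold scale, is narrower than this and understates the uncertainty. The size of the rise is therefore known only within wide limits. Line #6 stood at 1.27 times line #3, with a counting interval of 0.999 to 1.62 that includes equal levels.

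*APX2* is not overlapped by another annotated gene. The gene before it on the same strand, AT3G09630, a ribosomal protein L4/L1 gene, lies 407 bases away and had 190.4 CPM in Col-0 against 234.9 and 198.9 in lines #3 and #6. The gene after it on the same strand, *HCF152*, lies 345 bases away and had 46.9, 34.3 and 39.2 CPM in the same order. Neither neighbour passed the test (log2 fold changes 0.19 and -0.35, adjusted p = 0.925 and 0.737 from edgeR), and both were at a measurable level in Col-0. Of the 5 anther and pollen markers, line #3 had 3 and line #6 had 0 above Col-0. Among them *GRP17*, a pollen coat protein gene, had 56, 506 and 1 reads in Col-0, line #3 and line #6. The tapetum gene *A9* had 21, 5 and 1, lower in both lines. The part of the fall of *IRX3* or of these marker levels in the APX values was not tested.

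*APX1*, the main cytosolic isoform, had 3434 reads in Col-0 against 4295 and 5691 in lines #3 and #6. Its levels were 343.5, 384.9 and 478.6 RPKM in that order, with an OE mean of 432 ± 66.2 (SD, n = 2 lines). Both lines were above Col-0, and line #6 was 1.24 times line #3 (counting interval 1.19 to 1.29), a gap beyond counting error. The ratio to Col-0 was 1.12 in line #3 (1.07 to 1.17) and 1.39 in line #6 (1.34 to 1.45), so both exceed counting error, which leaves out the variation between pools. With that variation in the test, the log2 fold change was 0.33 (SE 0.22, 95% interval -0.14 to 0.80) and did not pass (adjusted p = 0.833 from edgeR). The interval runs from 0.908 to 1.74 on the fold scale and includes no change.

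*APX2* thus stayed a minor part of the cytosolic transcripts. Of the reads of *APX1* and *APX2* together, *APX2* held 0.0291% in Col-0 (exact 95% interval 0.000737 to 0.162), 2.74% in line #3 (2.28 to 3.27) and 2.80% in line #6 (2.39 to 3.26). There were 3434 *APX1* reads for the single *APX2* read in Col-0, against 35.5 for each *APX2* read in line #3 and 34.7 in line #6. The share was nearly equal in the 2 lines although both genes had more reads in line #6.

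**Figure D2:**
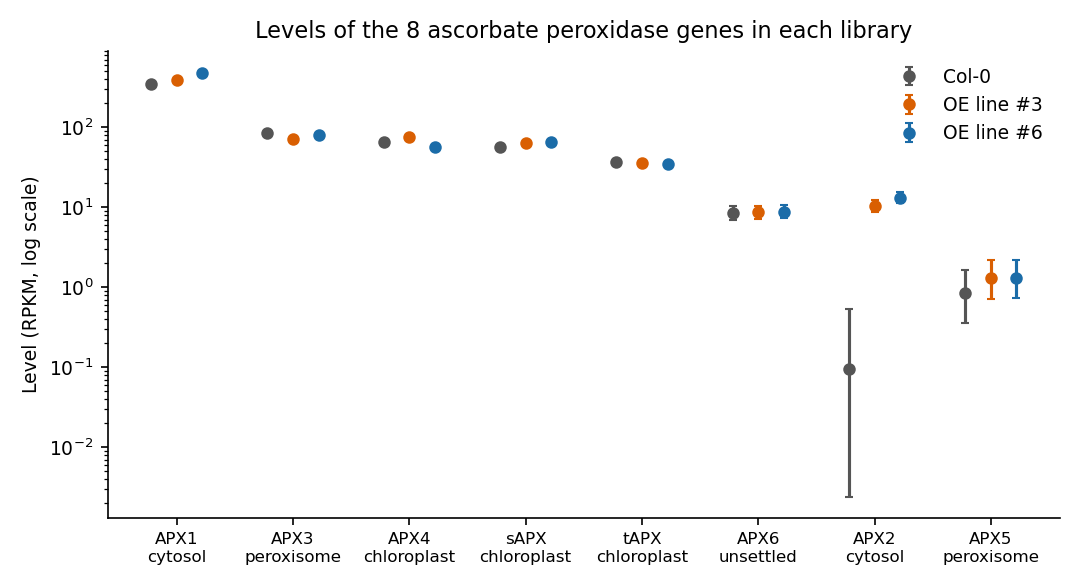
Level of each APX gene in RPKM on a log axis, ordered by the mean of the 3 libraries, for Col-0 (grey), OE line #3 (orange) and OE line #6 (blue), with exact 95% Poisson intervals that cover counting error only. *APX2* lies at 0.096 in Col-0 and at 10.4 and 13.2 in the lines, while the points of the other members lie close together.

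In the peroxisome membrane, *APX3* was the abundant isoform, with 1024 reads in Col-0 against 962 and 1152 in lines #3 and #6. This came to 85.4, 71.9 and 80.8 RPKM, both lines below Col-0, with an OE mean of 76.3 ± 6.28 (SD, n = 2 lines). The ratio to Col-0 was 0.842 in line #3 (0.770 to 0.920), beyond counting error, and 0.946 in line #6 (0.87 to 1.03), which includes 1. The log2 fold change of -0.16 (SE 0.18, 95% interval -0.55 to 0.23) did not pass the test (adjusted p = 0.930 from edgeR). Scaled by total reads, which moves the median of all tested genes by -0.052 in line #3 and 0.14 in line #6, the log2 ratio was -0.30 in line #3 and 0.06 in line #6. The order of line #6 and Col-0 thus turns with the scale.

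*APX5*, the second peroxisomal isoform, was the least abundant member in both lines, with 8 reads in Col-0 against 14 and 15 in lines #3 and #6. At 0.841, 1.32 and 1.32 RPKM, both lines were above Col-0, with an OE mean of 1.32 ± 0.0049 (SD, n = 2 lines). The ratios of 1.57 (0.614 to 4.31) and 1.58 (0.627 to 4.29) include 1 within counting error. The log2 fold change of 0.65 (SE 0.71, 95% interval -0.86 to 2.16, adjusted p = 0.927 from edgeR) is wide, and a change within it was not detectable at this depth.

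In the chloroplast, *sAPX*, whose product goes to the stroma and to mitochondria, had 830 reads in Col-0 against 1045 and 1162 in lines #3 and #6. Its levels were 56.0, 63.1 and 65.9 RPKM, with both lines above Col-0 and an OE mean of 64.5 ± 1.93 (SD, n = 2 lines). The ratio to Col-0 was 1.13 in line #3 (1.03 to 1.24) and 1.18 in line #6 (1.08 to 1.29), both beyond counting error. The log2 fold change was 0.20 (SE 0.18, 95% interval -0.18 to 0.59) and did not pass (adjusted p = 0.900 from edgeR). *tAPX*, the isoform anchored in the thylakoid membrane, had 579, 622 and 638 reads, or 37.1, 35.7 and 34.4 RPKM, with an OE mean of 35.0 ± 0.950 (SD, n = 2 lines). Its log2 fold change was -0.083 (SE 0.18, 95% interval -0.46 to 0.30, adjusted p = 0.970 from edgeR). The log2 ratio of *tAPX* turned sign with total reads in line #6 (0.03) and with total reads without ribosomal RNA and organelle genes in line #3 (0.02). The ratio of *sAPX* to *tAPX* levels was 1.51 in Col-0 against 1.77 and 1.92 in lines #3 and #6, higher in both lines, with no test, and this ratio does not depend on the scale.

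*APX4*, a thylakoid lumen protein related to APX, had 815 reads in Col-0 against 1054 and 854 in lines #3 and #6, or 65.2, 75.5 and 57.4 RPKM. Col-0 lay between the lines, whose mean was 66.4 ± 12.8 (SD, n = 2 lines). The ratio was 1.16 in line #3 (1.06 to 1.27) and 0.881 in line #6 (0.799 to 0.971), opposite in direction under all 4 scalings compared. Line #6 had 0.760 times the level of line #3 (0.694 to 0.833), and the log2 fold change over both lines was 0.028 (SE 0.20, 95% interval -0.40 to 0.45, adjusted p = 0.995 from edgeR). *APX6*, whose location is not settled, had 102, 116 and 125 reads, or 8.60, 8.77 and 8.86 RPKM, with an OE mean of 8.82 ± 0.0684 (SD, n = 2 lines). Its log2 fold change was 0.035 (SE 0.23, 95% interval -0.46 to 0.53, adjusted p = 0.994 from edgeR), the flattest levels of the family on TMM-scaled depths. Scaled by total reads, the log2 ratio of *APX6* was -0.03 in line #3 and 0.18 in line #6, beside -0.11 and 0.03 for *tAPX*.

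**Figure D3:**
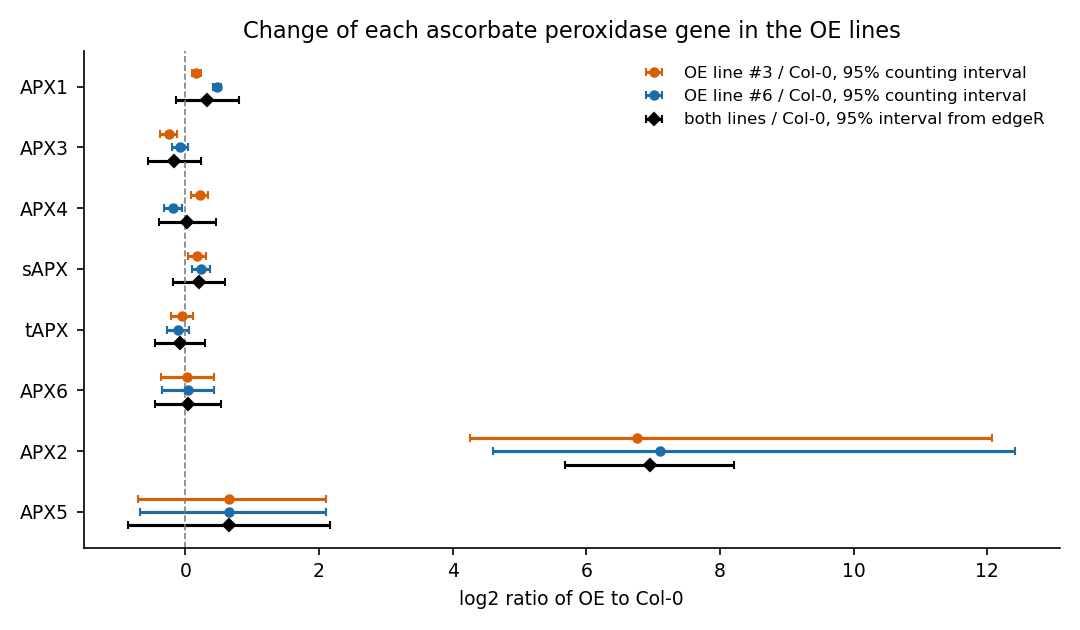
log2 ratio of OE to Col-0 for each APX gene, with line #3 (orange) and line #6 (blue) shown with 95% counting intervals and both lines together (black) with the 95% interval from edgeR without the prior count. The black interval of *APX2*, 5.68 to 8.21, is the one that does not reach 0. It is narrower than the counting intervals of the lines and understates the uncertainty.

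By the mean of the 3 libraries the order of levels was *APX1* (402 RPKM), *APX3* (79.3), *APX4* (66.0), *sAPX* (61.7), *tAPX* (35.7), *APX6* (8.74), *APX2* (7.91) and *APX5* (1.16). The ranges over the libraries did not overlap between *APX1* and *APX3*, *sAPX* and *tAPX*, or *tAPX* and *APX6*. They overlapped between *APX3* and *APX4*, *APX4* and *sAPX*, *APX6* and *APX2*, and *APX2* and *APX5*, so these neighbours were not separated. *APX2* was the lowest of the 8 in Col-0 and the 6th in both lines, above *APX6* and *APX5*. The counting intervals of *APX2* and *APX5* overlapped in Col-0, and those of *APX2* and *APX6* overlapped in line #3. Among the 18802 tested genes, *APX1* ranked 192 by RPKM in Col-0, *APX3* 1023, *APX4* 1387, *sAPX* 1641, *tAPX* 2598, *APX6* 8807, *APX5* 17420 and *APX2* 18755.

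Summed by compartment, the cytosolic genes held the largest part of the family's level in every library. They came to 343.6 RPKM in Col-0 against 395.3 and 491.8 in lines #3 and #6, which is 57.6%, 60.7% and 66.4% of the family. The chloroplast genes came to 158.2, 174.3 and 157.6 RPKM, or 26.5%, 26.8% and 21.3%, and the peroxisomal genes to 86.2, 73.2 and 82.1 RPKM, or 14.5%, 11.2% and 11.1%. *APX4* made up 65.2, 75.5 and 57.4 RPKM of the chloroplast sum, above Col-0 in line #3 and below it in line #6. *sAPX* gave 56.0, 63.1 and 65.9 of it and *tAPX* 37.1, 35.7 and 34.4, so the course of the sum over the libraries largely follows *APX4*. The cytosolic share was thus higher in both lines than in Col-0, without a test, and most of the added level was that of *APX1*. The whole family summed to 596.7, 651.6 and 740.3 RPKM, and without *APX1* to 253.2, 266.7 and 261.8. By reads instead of RPKM the cytosolic share was 50.6%, 53.7% and 59.7%.

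**Figure D4:**
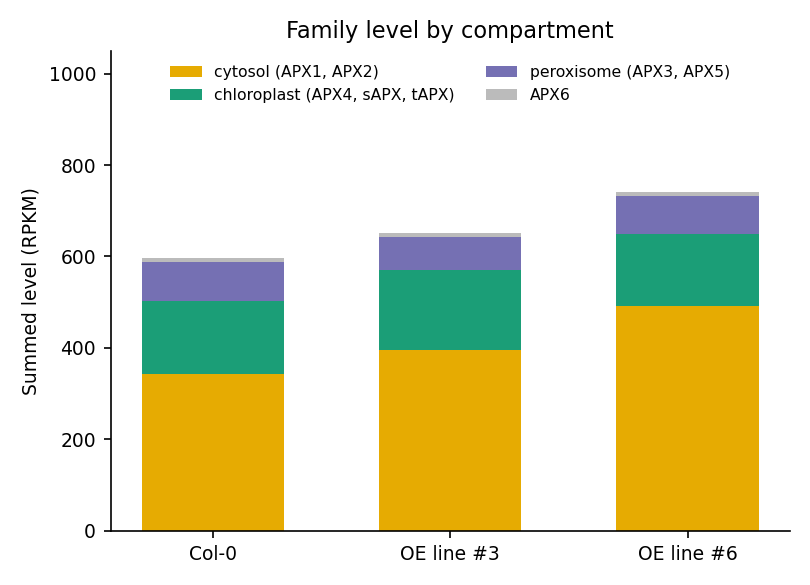
Summed RPKM of the APX genes by compartment, stacked from 0, for Col-0 and the 2 OE lines, 1 library each and without error bars. The cytosolic part grows from 343.6 in Col-0 to 395.3 in line #3 and 491.8 in line #6. The chloroplast part, which includes *APX4*, lies between 157.6 and 174.3.

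The genes that act with APX did not pass the test. All 10 genes of ascorbate regeneration were tested and edgeR called 0 higher and 0 lower, beside the 0.229% and 0.197% of all genes, with 1 at an unadjusted p under 0.05, beside 7.38%, and 0 by DESeq2, at a median log2 fold change of 0.02 beside 0.0058 over all tested genes. The smallest p was that of *MDAR3*, a monodehydroascorbate reductase, with 454, 414 and 370 reads in Col-0, line #3 and line #6 (log2 fold change -0.41 with an SE of 0.19, adjusted p = 0.644 from edgeR). Next was the glutathione reductase gene *GR2*, with 2924, 2330 and 2955 reads (log2 fold change -0.36 with an SE of 0.20, adjusted p = 0.782 from edgeR).

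Of the 10 genes of ascorbate biosynthesis edgeR likewise called 0 in each direction, with 1 at an unadjusted p under 0.05 (10% beside 7.38% of all genes) and 0 by DESeq2. *VTC2*, the GDP-L-galactose phosphorylase that catalyses the committed step, had 1030 RPKM in Col-0 against 650 and 753 in lines #3 and #6, lower in both lines. Its log2 fold change was -0.55 (SE 0.24, adjusted p = 0.629 from edgeR), and that of *GME*, the GDP-mannose epimerase, was -0.34 (SE 0.19, adjusted p = 0.782 from edgeR). The list's median was 0.02.

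Other enzymes that remove peroxides were tested for 17 of 20 genes (catalases, peroxiredoxins and glutathione peroxidase-like proteins), with 0 called in each direction by edgeR, 1 at an unadjusted p under 0.05 (5.88% beside 7.38% of all genes) and 0 by DESeq2. The catalase gene *CAT1* had 193, 283 and 325 reads in Col-0, line #3 and line #6 (log2 fold change 0.45 with an SE of 0.20, adjusted p = 0.627 from edgeR). *GPX7* had 156, 131 and 136 reads (log2 fold change -0.43 with an SE of 0.21, adjusted p = 0.704 from edgeR). The list's median log2 fold change was -0.09.

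Of 8 genes widely used as markers of oxidative stress, edgeR called 0 in each direction, 0 had an unadjusted p under 0.05 and DESeq2 called 0, at a median of -0.03. *FER1*, a ferritin of plastids, had 622, 872 and 1003 reads (log2 fold change 0.38 with an SE of 0.18, adjusted p = 0.690 from edgeR), and *GSTU24*, a glutathione transferase, had 36, 23 and 24 (log2 fold change -0.82 with an SE of 0.42, adjusted p = 0.732 from edgeR). With 0.229% and 0.197% of all genes called, counts of 0 in lists of this size do not set them apart from other genes.

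**Figure D5:**
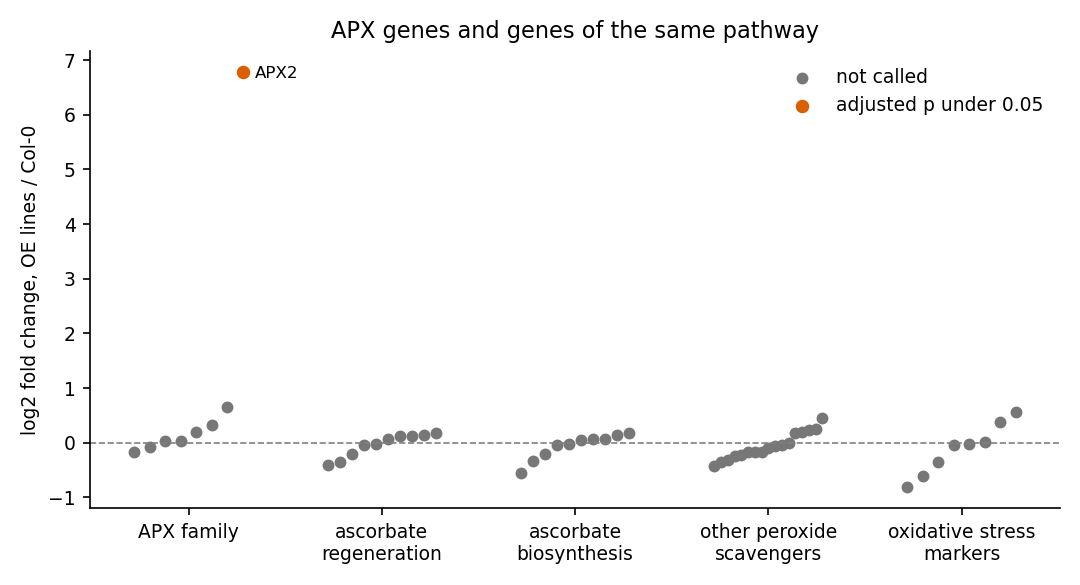
log2 fold change of both OE lines against Col-0 from edgeR (vertical axis) for the tested genes of the APX family and of 4 lists of related genes, each point a gene sorted within its list. *APX2*, at 6.79, is the orange point past an adjusted p of 0.05, and the other points lie between -0.82 and 0.65.

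The genes whose pattern was most like that of *APX2* were chosen by the smallest Euclidean distance of log2(CPM + 0.5), centred on the gene's mean, over the 3 libraries. The nearest were AT5G37670, a small heat shock protein gene with 17, 361 and 531 reads in Col-0, line #3 and line #6 (distance 0.258), and *HSP17.6A* (AT5G12030), a cytosolic small heat shock protein, with 48, 792 and 967 (distance 0.483). *MRD1* (AT1G53480) followed with 1, 78 and 62 reads (0.938), then *EGY3* (AT1G17870) with 124, 1191 and 1624 (0.979) and *HEI10* (AT1G53490) with 10, 159 and 158 (1.01). All 5 had fewer reads in Col-0 than in either line. Over 3 libraries such likeness mostly reflects a large rise in both lines. With 2 in place of 0.5 CPM added, 2 of the 5 stayed among the nearest 5, *EGY3* at rank 2 and *HEI10* at rank 3. The small heat shock protein genes AT5G37670 and *HSP17.6A* moved to ranks 6 and 8 and *MRD1* to 12, so the order of likeness depends on this setting.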

How the data were processed

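Double-stranded cDNA of 3 libraries was sequenced. After mapping to TAIR10 the authors deposited a raw count per gene (submitters' processing notes name CASAVA 1.7). For the aligner and for multiply mapping reads, the method is not given in the sources used here. Genes listed NA in a comparison were taken as 0 reads. Deposited RPKM was not used, and the fold, log2 and q-value columns and the pathway lists, which hold the authors' own comparisons, were left out.

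Col-0 had 9968154 reads in genes, line #3 11556077 and line #6 10786332. edgeR 4.0.16 in R 4.3.3 (TMM factors 0.981, 0.945 and 1.08, estimateDisp, glmQLFit, glmQLFTest) compared both OE lines with Col-0 over 18802 genes, those reaching 10 reads in any library, with Benjamini-Hochberg adjustment over them. There was 1 residual and 13.6 prior degrees of freedom per gene. The prior count was 0.125. The SE was derived as the size of the unshrunk log2 fold change over the root of the F statistic, and edgeR does not report it. RPKM was computed from the reads, the table's gene length and the scaled depth. Ratios between libraries have exact 95% binomial intervals for counting error only. The test was tried on simulated data.

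Members and gene lists were chosen with earlier results of these data known. Named are the 8 APX genes, up to 4 called genes of each pathway list or otherwise the 2 with the smallest p, and the 5 genes most like *APX2*. Marker lists are given by their sums and calls. Promoters, coding sequences and overlaps came from the RefSeq TAIR10.1 genome with its own annotation, where 32835 of 33602 loci had an entry. The table has no coordinates. Alternatives covered scaling, read filter, DESeq2 1.42.0, the legacy form of the fit, the prior count, each line alone, the unit of shares and the pseudocount. Other steps ran in Python 3.11.15 with Biopython 1.88, SciPy 1.17.1, pandas 2.3.3, NumPy 2.4.6 and matplotlib 3.10.9.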

Additional observations from a re-analysis of the deposited data

How the results depend on the processing

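The call of *APX2* held under the other scalings, with a minimum of 1 read in 1 library, in the legacy fit and with DESeq2. The adjusted p was 2.46e-05 to 0.00336 from edgeR or DESeq2, apart from edgeR with total reads. That fit alone gave a far smaller value, 4.59e-22. With at least 10 reads required in every library, *APX2* and *APX5* were not tested, since Col-0 had 1 and 8 reads, and the family's count of genes called higher was 0. Its log2 fold change was 5.47 with a prior count of 2, 7.11 without line #3 and 6.76 without line #6. Leaving out a line leaves 1 library against 1 with no residual degrees of freedom, so these are values with no test and no counts of calls, and the lone Col-0 library cannot be left out. The 43 genes called higher over the whole table became 23 with total reads without ribosomal RNA and organelle genes, 27 with a minimum of 1 read, 25 with 10 reads in every library, 30 with DESeq2 and 58 with total reads. The 37 called lower became 7, 14 and 17 under the first 3 of these, 14 with DESeq2 and 45 with total reads. No paired analysis was possible because 1 Col-0 library served both lines. Depth limits *APX5* and the size of the *APX2* rise, which rests on 1 read in Col-0.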
